A study of Mus musculus with 17 samples.

Results

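The transcripts described here encode the machinery that prepares and displays peptides on major histocompatibility complex (MHC) class I. They were chosen by symbol, for their known function, as 10 of the 31647 features counted in mouse hearts: the heavy chains *H2-K1* and *H2-D1*, the light chain *B2m*, the loading genes *Tap1* and *Tapbp*, the inducible proteasome subunits *Psmb8*, *Psmb9* and *Psmb10*, and the proteasome activator subunits *Psme1* and *Psme2*. The choice was made with earlier results of these data known. All 10 were tested. The hearts came from male wild-type C57BL/6J mice aged 8 to 11 weeks, collected 5 days after surgery. In 9 mice the left anterior descending coronary artery (LAD) was permanently ligated and the infarct zone (IZ) was dissected, and 8 sham-operated mice gave left ventricle (LV). Each library came from 1 mouse, and the ligated artery was not reopened. RNA was sequenced from transcript 3' ends with molecular identifiers (MACE), so 1 end is counted per transcript and levels of different genes were set side by side without a length correction.

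Class I molecules are built from a polymorphic heavy chain and beta-2 microglobulin, and carry peptides from proteins of the cell's own cytosol to its surface, where cytotoxic T cells and NK cells read them. Peptides are cut by the proteasome, pumped into the endoplasmic reticulum by the transporter TAP and loaded with the help of tapasin. In cells exposed to interferon, and constitutively in many immune cells, the inducible subunits replace the constitutive catalytic subunits to give the immunoproteasome. Cardiomyocytes are known for low class I levels, and leukocytes for high ones.

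Promoter sequences of 6 members are printed because interferon-response motifs have been described at many genes of this pathway. Each is 300 bases from RefSeq (GRCm38.p6), 250 before and 50 after the transcript start, read 5' to 3' on the gene's strand, and 10 of 10 members matched an entry. Capitals mark matches, on either strand, to the core of the interferon-stimulated response element (ISRE, GAAA and GAAA with any 2 bases between), a shorter interferon regulatory factor (IRF) motif (GAANNGAAA, which an ISRE core does not have to contain) or the gamma-activated site (GAS, TTCNNNGAA). Of 32851 mouse promoters of this length, 3.443% held the ISRE core, 7.516% the short IRF motif and 8.298% the GAS. The windows are *H2-K1* at chr17:34000298-34000597 on the minus strand, *H2-D1* at chr17:35262844-35263143 on the plus strand, *B2m* at chr2:122147437-122147736 on the plus strand, *Psmb8* at chr17:34197945-34198244 on the plus strand, *Psme1* at chr14:55578244-55578543 on the plus strand and *Tap1* at chr17:34187306-34187605 on the plus strand.
H2-K1: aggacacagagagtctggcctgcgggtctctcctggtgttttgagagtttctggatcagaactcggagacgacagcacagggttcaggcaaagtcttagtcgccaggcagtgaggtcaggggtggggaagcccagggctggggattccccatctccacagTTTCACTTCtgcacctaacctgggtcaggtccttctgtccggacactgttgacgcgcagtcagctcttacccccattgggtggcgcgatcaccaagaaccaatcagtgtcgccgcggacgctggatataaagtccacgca
H2-D1: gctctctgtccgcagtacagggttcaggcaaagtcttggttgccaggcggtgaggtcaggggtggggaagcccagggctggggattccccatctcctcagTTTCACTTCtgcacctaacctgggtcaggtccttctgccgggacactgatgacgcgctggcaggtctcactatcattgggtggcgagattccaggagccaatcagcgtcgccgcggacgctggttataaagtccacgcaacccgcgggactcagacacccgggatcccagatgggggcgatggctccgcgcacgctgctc
B2m: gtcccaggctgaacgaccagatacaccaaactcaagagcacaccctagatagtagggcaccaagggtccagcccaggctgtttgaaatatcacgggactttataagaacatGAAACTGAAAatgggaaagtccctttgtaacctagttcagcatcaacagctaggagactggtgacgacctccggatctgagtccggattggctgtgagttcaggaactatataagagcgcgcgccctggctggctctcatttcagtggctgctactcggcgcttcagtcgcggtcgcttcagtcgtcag
Psmb8: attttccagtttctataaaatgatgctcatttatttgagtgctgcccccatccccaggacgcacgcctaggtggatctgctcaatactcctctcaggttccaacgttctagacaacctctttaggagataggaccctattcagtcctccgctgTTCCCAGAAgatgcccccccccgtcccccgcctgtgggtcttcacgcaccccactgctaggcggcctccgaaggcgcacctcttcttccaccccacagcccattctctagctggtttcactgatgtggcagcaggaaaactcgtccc
Psme1: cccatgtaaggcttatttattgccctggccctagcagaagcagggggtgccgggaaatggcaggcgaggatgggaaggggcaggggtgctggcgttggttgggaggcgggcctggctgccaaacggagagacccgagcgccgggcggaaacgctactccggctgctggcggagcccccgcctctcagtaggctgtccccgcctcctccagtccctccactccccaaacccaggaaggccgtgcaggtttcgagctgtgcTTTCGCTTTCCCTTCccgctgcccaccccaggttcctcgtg
Tap1: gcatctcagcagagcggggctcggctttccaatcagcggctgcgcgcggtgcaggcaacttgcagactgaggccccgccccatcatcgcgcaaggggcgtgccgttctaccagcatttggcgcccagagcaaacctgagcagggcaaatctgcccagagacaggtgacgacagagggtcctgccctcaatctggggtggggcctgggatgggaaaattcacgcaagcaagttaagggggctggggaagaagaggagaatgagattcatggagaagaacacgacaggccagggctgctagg

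The heavy chain promoters of *H2-K1* and *H2-D1* carried the same letters, TTTCACTTC, which is the short IRF motif on the opposite strand, at 90 to 82 and at 150 to 142 bases before the start. *B2m* held an ISRE core, GAAACTGAAA, and *Psmb8* a GAS, TTCCCAGAA. *Psme1*, the member with the lowest change below, held an ISRE core on the opposite strand, TTTCGCTTTC, that overlapped a short IRF motif just after its start. None of the 3 motifs was found in these windows of *Tap1*, *Tapbp*, *Psmb9*, *Psmb10* or *Psme2*. *Tap1* (chr17:34187553-34197225) and *Psmb9* (chr17:34181987-34187764) are transcribed in opposite directions and overlap by 212 bp at their annotated starts, and the RefSeq promoter window of *Psmb9* (chr17:34187281-34187580) overlaps the one printed for *Tap1*. A match of letters describes the sequence only.

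The libraries held 1237675 to 4738307 counts, and no batch is given in the labels. IZ replicate 1 stood apart. Mitochondrially encoded transcripts took 19.5% of its counts, against 4.22 to 6.78% in the other 8 IZ libraries and 22.9 to 32.4% in sham. Its summed level of 8 cardiomyocyte markers was 29355 CPM (counts relative to a library size scaled by the trimmed mean of M values, TMM), against 2799 to 6710 in the other IZ libraries and 66188 to 78665 in sham. Cell type markers moved strongly between the groups. All 8 cardiomyocyte markers were lower in the IZ, 9 of 9 leukocyte and macrophage markers with a feature were higher (summed 347 to 535 CPM in sham and 2049 to 5583 in the IZ), and 6 of 7 fibroblast markers were higher. Over all genes tested, 33.1% were called lower and 36.3% higher. In bulk tissue, a change in the number of cells of a type cannot be told apart from a change in RNA per cell, and the part of these markers in the results below was not tested.

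Class I and immunoproteasome transcripts were upregulated in the IZ 5d post-MI for 7 of the 10 members, downregulated for 1 (*Psme1*) and not called for 2 (*Psmb10* and *Psme2*), by edgeR's quasi-likelihood test at an adjusted p below 0.05. Over all 12301 genes tested, 36.3% were called higher, 33.1% lower and 69.5% either way, so a call by itself was the usual outcome in this comparison. The median log2 fold change was 0.93 for the members and 0.05 for all genes tested. In 5 members (*H2-K1*, *H2-D1*, *B2m*, *Tap1* and *Psmb8*) every IZ library lay above every sham library, which was so for 16.6% of all genes. As a share of all counts, the 10 transcripts together took 0.0785 ± 0.0106% in sham (SD, n = 8) and 0.338 ± 0.0488% in the IZ (SD, n = 9), with 0.236% in IZ replicate 1. This share uses total counts, which mitochondrial and cardiomyocyte transcripts fill to different extents in the 2 groups.

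**Figure D1:**
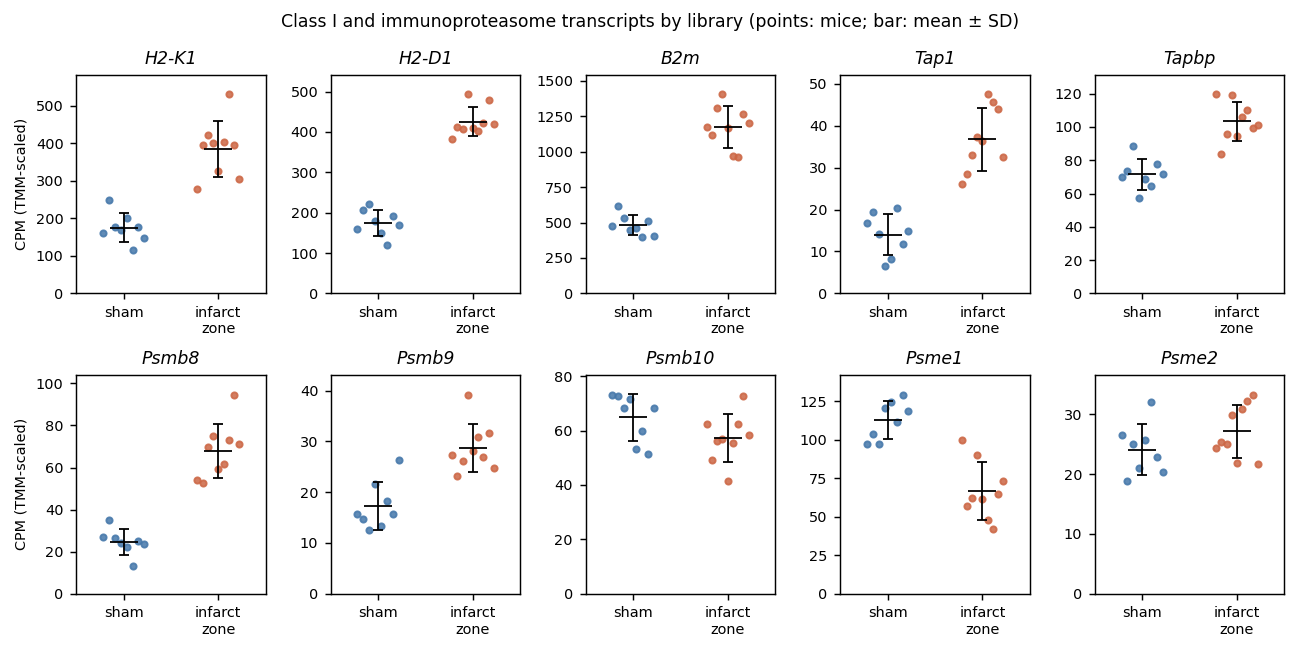
Level of each of the 10 members in CPM on TMM-scaled library sizes (y axes from 0, a scale per gene) in 8 sham and 9 infarct zone libraries; points are mice and bars the mean ± SD. The groups are apart for H2-K1, H2-D1, B2m, Tap1 and Psmb8, share values for Tapbp, Psmb9, Psmb10 and Psme2, and nearly part in the opposite direction for Psme1, where 8 of 9 infarct zone libraries lie below every sham library (with total counts alone as the scaling, Psme1 is 0.30 higher on the log2 scale and Psmb10 0.88 higher).

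In sham LV, *B2m* had the highest level of the members at 481 ± 71.0 CPM (SD, n = 8), followed by *H2-K1* and *H2-D1* at 175 ± 38.9 and 174 ± 32.6 CPM, which did not differ beyond their spread. *Psme1* came next at 113 ± 12.4 CPM, above *Tapbp* and *Psmb10*, whose ranges of mean ± SD overlapped. *Psmb8*, *Psme2*, *Psmb9* and *Tap1* were lowest, at 24.6, 24.1, 17.3 and 14.0 CPM, with overlapping ranges between neighbours. In the IZ the top of the order was again *B2m*, with *H2-D1* and *H2-K1* overlapping behind it, while *Psmb8* stood at the level of *Psme1* (67.9 ± 12.9 and 66.6 ± 18.7 CPM, SD, n = 9). *Psmb8* had been below *Psme1* by several fold in sham.

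The transcripts of the class I heavy and light chains rose by similar amounts. *B2m* (chr2:122147686-122153083), the light chain shared by all class I molecules, measured 399.8 CPM in the lowest, 470.1 in the median and 616 in the highest sham library, and 962, 1174 and 1404 CPM in the IZ. The lowest IZ library was thus well above the highest sham library. Its log2 fold change was 1.29 ± 0.14 (SE), with an adjusted p of 1.51e-08. *H2-D1* (chr17:35262730-35267499), a classical heavy chain, ran from 120.1 through 174 to 221 CPM in sham and from 383 through 412 to 492.8 in the IZ. The groups did not overlap, and the IZ libraries were close together, with a coefficient of variation of 8.61% against 18.7% in sham. The log2 fold change was 1.29 ± 0.12 (SE, adjusted p = 3.99e-09). *H2-K1* (chr17:33996017-34000347), the other classical heavy chain measured, ran from 117 through 172 to 249 CPM in sham and from 279 through 397 to 531 in the IZ, again without overlap. IZ replicate 1, the IZ library with the most cardiomyocyte transcripts, was the lowest IZ library for both heavy chains, and IZ replicate 7 the highest for *H2-K1*. The log2 fold change of *H2-K1* was 1.14 ± 0.15 (SE, adjusted p = 4.52e-07), and 1.15 without IZ replicate 1. The 3' end of *H2-K1* is 96.1% identical to that of *H2-D1* over 203 bases and similar to those of *H2-Q7* and *H2-T22*, and that of *H2-D1* to *Kdm2a* (96.0% over 125 bases), so reads may be split between these genes and the single heavy chain values are uncertain.

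The loading genes rose to different extents. *Tap1*, a subunit of the peptide transporter, measured 6.63, 14.5 and 20.4 CPM in the lowest, median and highest sham library and 26.2, 36.5 and 47.5 CPM in the IZ. Every IZ library was above every sham library, although sham counts were only 12 to 31 per library. The log2 fold change was 1.40 ± 0.19 (SE, adjusted p = 6.73e-07). *Tapbp* (chr17:33915899-33929292), which encodes tapasin, the bridge between the transporter and empty class I molecules, ran from 57.4 through 70.7 to 88.6 CPM in sham and from 83.8 through 101 to 119.5 in the IZ. The groups overlapped slightly, since IZ replicate 2 lay below the highest sham library and the other 8 above it. The log2 fold change of *Tapbp* was 0.53 ± 0.10 (SE, adjusted p = 8.45e-05). *Tapbp* shares 3422 bp with *Zbtb22* on the same strand, and the 2 genes' counts may not be fully separate. *Tap2*, which encodes the partner that *Tap1* needs in the transporter, measured 25.8 ± 8.02 CPM in the sham hearts (SD, n = 8) and 23.4 ± 11.03 CPM in infarct tissue (SD, n = 9) and was not called (log2 fold change -0.15 ± 0.25, SE, adjusted p = 0.609, or 0.93 with total counts alone). The log2 ratio of *Tap1* to *Tap2*, chosen after their values were seen and therefore not tested, went from a mean of -0.89 in sham to 0.76 in the IZ.

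Of the 3 inducible catalytic subunits, *Psmb8* and *Psmb9* rose and *Psmb10* was not called. *Psmb8* (chr17:34197721-34201454) encodes the chymotrypsin-like subunit of the immunoproteasome and measured 13.1, 24.7 and 34.96 CPM in the lowest, median and highest sham library and 52.8, 69.5 and 94.6 CPM in the IZ. The groups did not overlap, and sham replicate 6 was the lowest of all with 18 counts. With a log2 fold change of 1.46 ± 0.15 (SE, adjusted p = 9.17e-09), it stood at a 2.75-fold level, within the SE of the change of *Tap1*. Without sham replicate 6 the values were 1.36 for *Psmb8* and 1.48 for *Tap1*. *Psmb9*, which replaces *Psmb6*, ran from 12.5 through 15.7 to 26.4 CPM in sham and from 23.2 through 27.3 to 39.2 in the IZ. Here 6 of 9 IZ libraries lay above every sham library, and sham replicate 8 reached into the IZ range. The log2 fold change of *Psmb9* was 0.72 ± 0.15 (SE, adjusted p = 1.89e-04). *Psmb10* (chr8:105935735-105938444), which replaces *Psmb7*, ran from 51.5 through 68.2 to 73.2 CPM in sham and from 41.5 through 56.9 to 72.6 in the IZ. Most of these values lay in the same range, with 2 IZ libraries below every sham library and none above. Its log2 fold change of -0.18 ± 0.11 (SE, adjusted p = 0.159) was not called, and it was 0.88 with total counts alone.

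The activator subunits went apart from the class I genes. *Psme1* (chr14:55578123-55581529), the alpha subunit of the interferon-inducible proteasome activator, ran from 97.3 through 115 to 129 CPM in sham and from 41.9 through 62.2 to 100.1 in the IZ. IZ replicate 1 was the highest IZ library and the only one to reach the sham range. With TMM scaling *Psme1* fell by 0.76 ± 0.14 on the log2 scale (SE, adjusted p = 6.13e-05) and by 0.88 without IZ replicate 1, whereas with total counts alone the sign turned (0.30, adjusted p = 0.0371). *Psme2* (chr14:55587441-55591113), the beta subunit encoded on the same chromosome, ran from 18.8 through 23.99 to 32.0 CPM in sham and from 21.8 through 25.4 to 33.2 in the IZ. The 2 groups covered much the same range, and the log2 fold change of 0.18 ± 0.13 (SE, adjusted p = 0.232) was not called. *Psme2b*, a gene on another chromosome whose last 500 bases are 99.0% identical to those of *Psme2*, held 3696 counts against 1210 for *Psme2*. The level of *Psme2* is therefore uncertain. Summed, an alternative chosen after seeing the data, the pair measured 100.2 ± 10.6 CPM in the sham hearts (SD, n = 8) and 106 ± 13.9 CPM in infarct tissue (SD, n = 9), with a log2 fold change of 0.09 ± 0.10 (SE, adjusted p = 0.450).

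The scaling of the libraries bears on all of these levels. With total counts alone in place of TMM, the median log2 fold change of all genes was 1.13, and 85.7% of the calls were in the higher direction against 52.3%. All 10 members were then called higher. Relative to the median of all genes in each fit, *Psmb10* stayed between -0.36 and -0.17 and *Psme1* between -0.94 and -0.72 on the log2 scale over all 28 alternatives, while *Psmb8* stayed between 1.27 and 1.47. These alternatives are not all distinct fits.

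**Figure D2:**
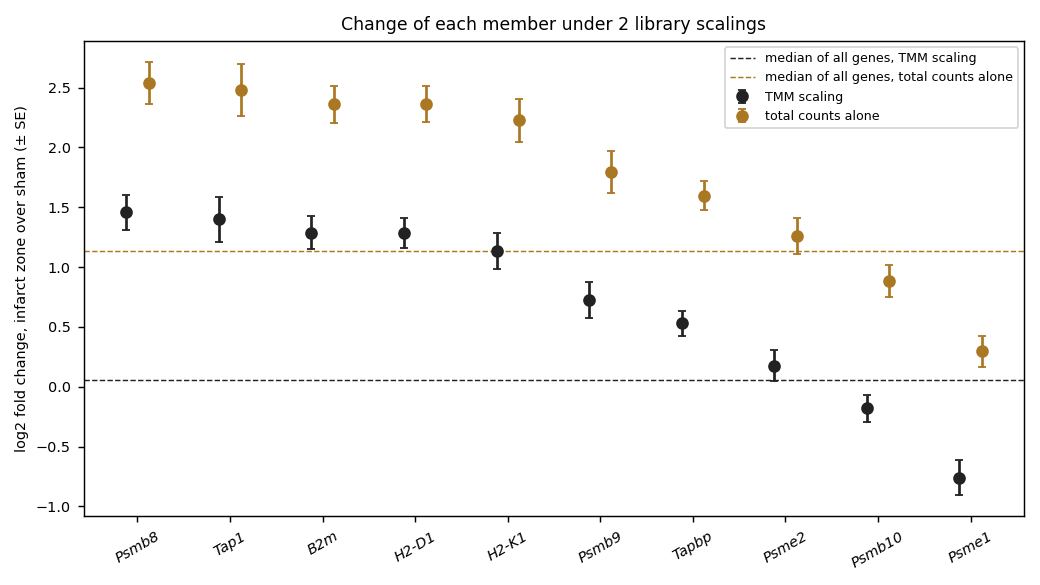
Log2 fold change of each member, infarct zone over sham (y axis), with its SE, under TMM scaling (black) and with total counts alone (ochre); dashed lines are the medians of all genes tested, 0.05 and 1.13. The order of the members is nearly the same (H2-D1 and B2m trade places) while the whole set moves up with the median, so that Psmb10 and Psme1 lie below the median line under both scalings and are above 0 only with total counts alone.

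Ratios of 2 transcripts within a library do not depend on the scaling, and 7 were compared by an exact permutation test (two-sided, 24310 arrangements of the group labels), with Benjamini-Hochberg adjustment over the 7. The inducible subunits rose against the constitutive subunits whose places they take. The log2 ratio of *Psmb8* to *Psmb5* ran from -2.67 to -0.91 in sham and from -0.29 to 0.84 in the IZ. All 9 IZ libraries lay above every sham library, and in 8 of them *Psmb8* was the more abundant of the pair. The mean difference was 1.90 ± 0.21 (SE, exact permutation p = 4.11e-05, the smallest this test can give, adjusted p = 1.44e-04). The 3' end of *Psmb5* is 99.1% identical to the pseudogene *Gm3375* over 427 bases, which held 1735 counts against 2652, so which of the pair is more abundant is uncertain. With both features summed, an alternative chosen after seeing the data, the difference was 1.91 and *Psmb8* was below the sum in every IZ library (highest log2 ratio -0.04). For *Psmb9* to *Psmb6*, the log2 ratio ran from -3.18 to -2.44 in sham and from -2.40 to -1.56 in the IZ. The groups came close to each other but did not overlap, with a difference of 0.91 ± 0.13 (SE, exact permutation p = 4.11e-05, adjusted p = 1.44e-04). For *Psmb10* to *Psmb7*, the mean went from -1.23 ± 0.35 (SD, n = 8) to -0.72 ± 0.26 (SD, n = 9), with 5 of 9 IZ libraries above every sham library (exact permutation p = 0.00424, adjusted p = 0.00989). All 3 inducible subunits thus gained on their partners. For the last pair *Psmb10* itself was not called, and *Psmb7* was lower on the TMM scale (log2 fold change -0.70 ± 0.12, SE, adjusted p = 1.13e-05, or 0.37 with total counts alone).

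The activator subunits differed from each other against *Psme3*, which encodes a related nuclear activator. The log2 ratio of *Psme1* to *Psme3* was 1.47 ± 0.12 in sham (SD, n = 8) and 1.04 ± 0.40 in the IZ (SD, n = 9), with 7 of 9 IZ libraries below every sham library (exact permutation p = 0.0124, adjusted p = 0.0173). For *Psme2* to *Psme3* it went the other way, from -0.75 ± 0.40 to -0.21 ± 0.32 (exact permutation p = 0.00926, adjusted p = 0.0162), and by 0.45 with *Psme2b* added. For the heavy chains against the light chain, no change was detected. *H2-D1* to *B2m* differed by 0.01 ± 0.08 between the groups (SE, exact permutation p = 0.879, adjusted p = 0.879) and *H2-K1* to *B2m* by -0.15 ± 0.14 (SE, exact permutation p = 0.333, adjusted p = 0.388). The *H2-K1* ratio was spread more widely in the IZ (-2.07 to -0.86) than in sham (-1.78 to -1.21), with 4 IZ libraries below and 1 above every sham library.

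**Figure D3:**
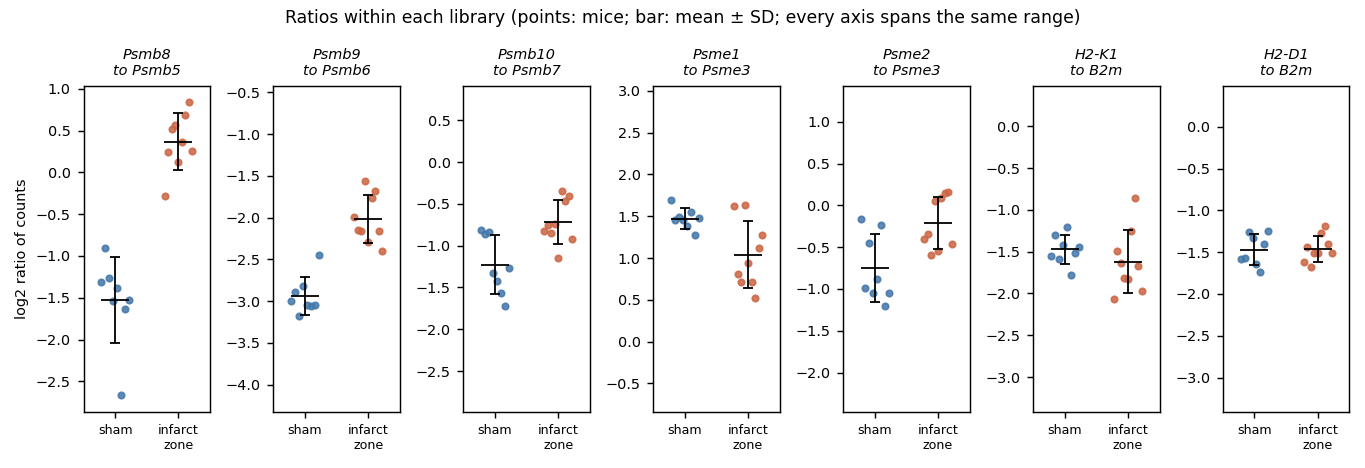
Log2 ratio of 2 transcripts' counts within each library (y axes, all of the same span) for 7 pairs in 8 sham and 9 infarct zone libraries; points are mice and bars the mean ± SD. Psmb8 to Psmb5 and Psmb9 to Psmb6 are higher in all 9 infarct zone libraries than in any sham library, Psme1 to Psme3 is lower in 7 of 9, and the groups overlap for H2-D1 to B2m and for H2-K1 to B2m, where 4 infarct zone libraries lie below and 1 above every sham library; the lowest sham point for Psmb8 to Psmb5, -2.67, is sham replicate 6.

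Other genes of the pathway were read from lists, and like the members they moved in several directions. The calls in each list stand beside 36.3% called higher and 33.1% called lower over all genes tested. Of 15 other class I heavy chains 6 were tested, of which 4 rose and 2 were not called, with a median log2 fold change of 0.93. Among those tested, *H2-Q7* and *H2-T22* have 3' ends similar to that of *H2-K1*, so this median may not be independent of that member. *H2-M3*, which presents formylated peptides, had the highest value, going from 4.08 ± 1.39 CPM in the sham hearts (SD, n = 8) to 13.2 ± 3.43 CPM in infarct tissue (SD, n = 9, log2 fold change 1.69 ± 0.23, SE, adjusted p = 6.57e-07). It had 3 to 13 counts per sham library and 20 to 101 in the IZ. Like *H2-T10* (5 to 17 in sham) and *H2-T23* (3 to 17 in sham), which also rose, it could not have passed the filter on low counts from the sham libraries alone. The filter thus favoured higher values among these. *H2-Q4* had the lowest, -0.10 ± 0.24 (SE, adjusted p = 0.737), and 0.98 with total counts alone. *H2-T3*, of the same list, had no count in any library. Of 5 class I-like molecules that pair with *B2m*, 4 were tested and only *Cd1d1*, which presents lipids, was called (0.85 ± 0.25, SE, adjusted p = 0.00397). With 2 to 11 counts per sham library and 10 to 38 in the IZ, *Cd1d1* too could not have passed the filter from sham alone. *Mr1*, which presents microbial vitamin metabolites, had the lowest value at -0.12 ± 0.21 (SE, adjusted p = 0.631, or 0.94 with total counts alone).

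Among 11 other loading and trimming genes, 3 rose, 3 fell and 5 were not called on the TMM scale. *Pdia3*, the thiol oxidoreductase of the loading complex, had the highest log2 fold change of that list, 1.92 ± 0.22 (SE, adjusted p = 4.71e-08), at 38.1 ± 9.86 CPM in the sham hearts (SD, n = 8) and 144 ± 48.1 CPM in infarct tissue (SD, n = 9). *Lnpep*, an aminopeptidase of endosomes, had the lowest at -1.10 ± 0.25 (SE, adjusted p = 4.67e-04), which was -0.02 with total counts alone.

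The lists of further proteasome genes covered the core, its activators, inhibitor and assembly factors, but not the regulatory particle. With TMM scaling, none was called higher of the 3 constitutive catalytic subunits, 11 other core subunits and 8 other activators, inhibitor and assembly factors. Called lower were 2, 4 and 5 of them, with medians of -0.43, -0.10 and -0.43. Over all genes tested 33.1% were called lower, and the 4 of 11 core subunits lay near that share. With total counts alone, the lists together had 58 genes called higher and 1 lower, in place of 20 and 16. *Psmb5* measured 70.0 ± 8.57 CPM in the sham hearts (SD, n = 8) and 52.1 ± 6.92 CPM in infarct tissue (SD, n = 9; log2 fold change -0.43 ± 0.10, SE, adjusted p = 8.00e-04, or 0.63 with total counts alone). *Psmb6* was not called (-0.17 ± 0.11, SE, adjusted p = 0.197, or 0.90 with total counts alone). Within the core, values ran from -0.61 for *Psma6* (0.46 with total counts alone) to 0.11 for *Psmb1* (1.18 and called with total counts alone). *Psme3* was at -0.39 ± 0.11 (SE, adjusted p = 0.00426, or 0.69 with total counts alone), and *Psmg3*, an assembly chaperone, was highest of its list at 0.16 (1.22 and called with total counts alone). *Psme4*, the large activator known for its part in spermatogenesis and DNA repair, was lowest of all these proteasome genes and was called lower under both scalings, at -1.42 ± 0.13 (SE, adjusted p = 1.62e-09) and -0.36.

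Of 20 regulators of class I genes 19 were tested, of which 11 rose, 2 fell and 6 were not called, with a median log2 fold change of 0.38. Over all genes tested, 36.3% rose and 33.1% fell. *Irf8*, a transcription factor of myeloid cells, had the highest value (6.21 ± 1.35 CPM in the sham hearts, SD, n = 8, and 40.2 ± 4.20 CPM in infarct tissue, SD, n = 9, log2 fold change 2.67 ± 0.14, SE, adjusted p = 4.34e-13). With 6 to 16 counts per sham library and 68 to 284 in the IZ, *Irf8* could not have passed the filter on low counts from sham alone. *Nlrc5*, the class I transactivator, was called at 0.997 ± 0.403 (SE, adjusted p = 0.0318) from 0 to 19 counts in the sham libraries, but without sham replicate 2, 4, 5, 6 or 8 the call was lost (adjusted p 0.0592 to 0.0655). Without sham replicate 7 it was 1.55, and with any 1 of 7 IZ libraries left out it did not pass the filter on low counts. *Irf1*, the interferon-inducible activator of several of these promoters, was not called at 0.29 ± 0.19 (SE, adjusted p = 0.194), and was called without sham replicate 2 (0.43, adjusted p = 0.0453) and with total counts alone (1.35, adjusted p = 1.19e-06). *Ifngr2*, a subunit of the interferon gamma receptor, had the lowest value at -0.94 ± 0.15 (SE, adjusted p = 9.77e-06), which was 0.11 with total counts alone. *Ifng*, which encodes interferon gamma, the best-known inducer of the inducible subunits, had 0 counts in every sham library and at most 2 in an IZ library. At this depth its level could not be compared.

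Of 6 receptors that read class I, only *Pirb*, an inhibitory receptor of myeloid cells, was tested. It went from 4.15 ± 2.67 CPM in the sham hearts (SD, n = 8) to 82.4 ± 16.7 CPM in infarct tissue (SD, n = 9), with every IZ library above every sham library (log2 fold change 4.35 ± 0.24, SE, adjusted p = 6.92e-13). *Pirb* had 3 to 13 counts per sham library and 116 to 624 in the IZ, so it passed the filter on low counts through the IZ alone. The filter thus favoured a higher value for the receptor tested. *Klrd1*, a receptor subunit of NK cells and T cells, had at most 1 count in a sham library and 1 to 39 counts in IZ libraries, at least 2.60-fold higher than a floor of 3 counts per sham library. *Cd8a*, the coreceptor of cytotoxic T cells, had 0 counts in all sham libraries and 0 to 18 in the IZ, where 6 of 9 libraries had any. Its mean IZ level was 0.749-fold of a floor of 3 counts per sham library, so no rise could be established. The summed level of 9 T and NK cell markers was 0.55 to 4.71 CPM in sham and 5.91 to 27.5 CPM in the IZ, none of them with enough counts to be tested.

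**Figure D4:**
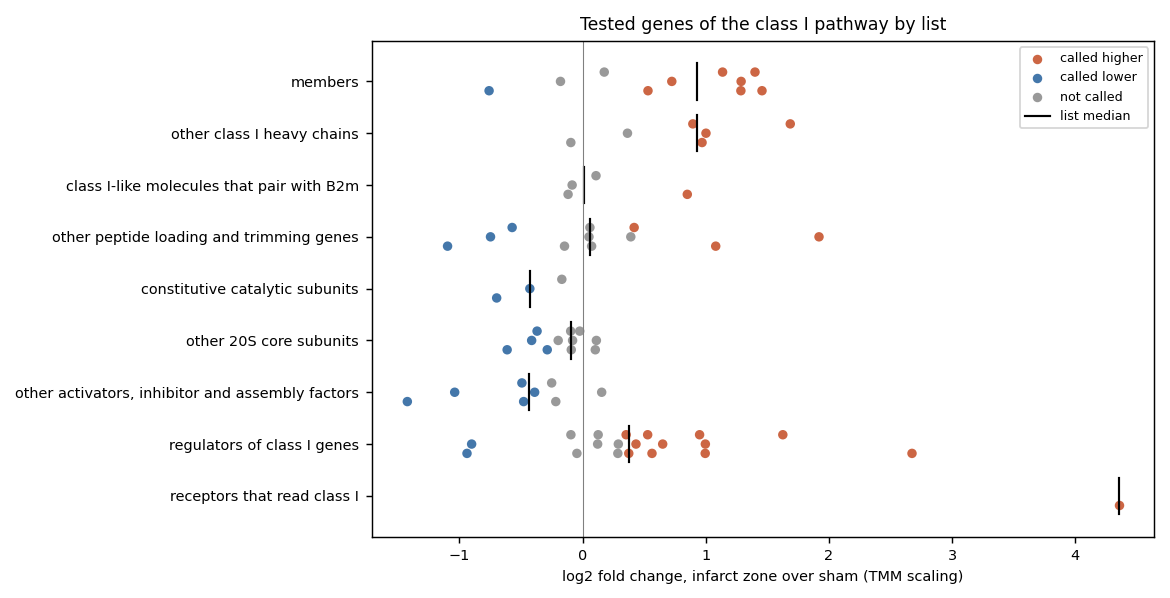
Log2 fold change (x axis, infarct zone over sham, TMM scaling) of the tested genes in the list of members and 8 further lists of the class I pathway; each point is a gene, coloured by its call, and black bars are list medians. The members and other heavy chains have medians of 0.93, and the 3' ends of H2-Q7 and H2-T22 are similar to that of H2-K1. The regulators have a median of 0.38. The constitutive, core and other proteasome lists have medians below 0 (above 0 with total counts alone for Psmb5, Psmb6, Psmb7, Psma6 and Psme3). The single point at the far right is Pirb, which passed the filter on low counts through the infarct zone alone.

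Markers of other cell types that could carry these transcripts moved unevenly. Their calls stand beside 36.3% called higher and 33.1% called lower over all genes tested. Of 5 neutrophil markers 3 were tested and all 3 were higher, with a list sum of 4.40 to 12.2 CPM in sham and 14.7 to 208 CPM in the IZ. Among those tested, *Csf3r* ranged from 0 to 3 counts in sham and from 19 to 129 in the IZ. *S100a8* ranged from 1 to 15 counts in sham and from 15 to 480 in the IZ, and *S100a9* from 1 to 11 and from 5 to 365. None of these tested markers could have passed the filter on low counts from the sham libraries alone. The filter thus favoured higher values among them. *Retnlg* and *Cxcr2* had too few counts to be tested. *Cxcr2* was above every sham library in 3 of 9 IZ libraries and *Retnlg* in 0, so the tested markers do not stand for the whole list. Of 7 endothelial markers none was called higher and 3 were called lower, not far from the share called lower over all genes. Their sums were 456 to 900.2 CPM in sham and 343 to 565 CPM in the IZ. The B cell marker *Cd79b* was higher and the dendritic cell marker *Zbtb46* lower, each the only one tested of its list. No sham library exceeded 4 counts of *Cd79b*, while the IZ libraries spanned 5 to 70. *Cd79b* therefore passed the filter on low counts only because of the IZ, which favoured a higher value. Among dendritic cell markers with too few counts to be tested, *Ccr7* was above every sham library in 9 of 9 IZ libraries. This was so in 8 for *Flt3* and *Xcr1*, in 7 for *Cd209a* and in 0 for *Clec9a*. The direction of the dendritic cell list thus cannot be read from *Zbtb46*. The values of B cell markers summed to at most 15.7 CPM in any library. Within the IZ, where leukocyte markers ranged from 2049 to 5583 CPM, replicate 1 was lowest in them and lowest of the IZ in 3 members, but highest in 2 others, *Tapbp* and *Psme1*. IZ replicate 2 was also lowest in 3 members (*Tapbp*, *Psmb8* and *Psmb9*), and its median rank over the 10 members was 2.5 against 4 for replicate 1, with 1 as the lowest.

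Among mice of the same group, the members did not form a tight set. With each group centred on its mean, Pearson's r over the 45 pairs of members had a median of 0.13 over 17 libraries and ran from -0.48 (*H2-K1* and *Psme1*) to 0.81 (*H2-D1* and *Psmb8*), with 30 pairs above 0. These are descriptions, since the points share library depth and tissue composition. Of 12 relations tested within a group, 6 pairs in each, none passed the Benjamini-Hochberg adjustment. The strongest was *H2-K1* with *B2m* in sham (Pearson's r = 0.86, exact permutation p = 0.00838, adjusted p = 0.101; Spearman's rho = 0.79, exact permutation p = 0.0279, adjusted p = 0.168; n = 8). Without the 2 libraries farthest from the median it was 0.54 (exact permutation p = 0.251, n = 6), and with any 1 sham library left out it ran from 0.72 to 0.92. In the IZ the same pair gave r = -0.31 (exact permutation p = 0.421, adjusted p = 0.631; rho = -0.13, exact permutation p = 0.744, adjusted p = 0.840; n = 9). *Tap1* and *Psmb9*, which start next to each other, gave r = 0.48 in the IZ (exact permutation p = 0.191, adjusted p = 0.472; rho = 0.58, exact permutation p = 0.108, adjusted p = 0.432; n = 9) and -0.07 in sham (exact permutation p = 0.874, adjusted p = 0.874; rho = 0.10, exact permutation p = 0.840, adjusted p = 0.840; n = 8).

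Among 9315 genes whose mean level reached 10 CPM, the 5 with the highest median r to the members, over the same 17 libraries and group-centred values, were *Scarb1* (0.48), *Usp36* (0.46), *Slfn5* (0.45), *Gm26762* (0.44) and *Zfp275* (0.43). None of them followed every member, as the lowest r of each to a single member was between -0.62 and -0.22. Of these 5, *Zfp275* alone was called between the groups, higher in the IZ (log2 fold change 1.04 ± 0.25, SE, adjusted p = 6.30e-04).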

How the data were processed

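Left ventricle of 8 sham-operated mice and infarct zone of 9 mice were sequenced by MACE. The deposited values are raw counts per gene, which the authors made by removing PCR duplicates by molecular identifier, mapping to mm10 and counting with HTSeq (Bowtie2 per the labels). The treatment of reads with several locations and the annotation release are not given in the sources used here. Of 31647 features, 31521 matched an annotated gene of GRCm38 (GENCODE), and 35 were merged groups of genes, kept in library sizes. All columns were used.

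Groups followed the labels. Genes passing filterByExpr (minimum count 10) went into the two-sided quasi-likelihood test of edgeR 4.0.16 (R 4.3.3) without covariates, with TMM scaling (factors 0.616 to 1.53) and Benjamini-Hochberg adjustment at 0.05. A gene with few sham counts could pass this filter through the IZ alone, which favours higher values among such genes. Tested on simulated data of this comparison (12301 genes, 200 changed by 1 on the log2 scale), it called 157 of the 189 changed genes that passed its filter (83.1%), and 4.85% of its calls were unchanged genes. In the simulation few genes changed, as many up as down, whereas 69.5% of genes were called in the real data. Its error rate therefore does not cover errors of scaling. CPM use TMM-scaled sizes, log2 ratios a prior count of 1, and a floor is 3 counts. Floors and count ranges cover counting error only. No 2 libraries were copies, since all 136 pairs differed by 2.41 to 252 times the sampling variance. Similar 3' ends were sought by BLAST. Python 3.11.15 with SciPy 1.17.1 and Matplotlib 3.10.9 did the rest.

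The members and lists were chosen with earlier results of these data known. Named genes are the members, the partners in ratios, the highest and lowest tested gene of each list, *Tap2*, *Nlrc5*, *Irf1* and *Ifng*, and the 5 genes most like the members. The result of 1 gene that the rule names is not reported here. *H2-T3*, *Klrd1*, *Cd8a*, *Cd79b* and *Zbtb46* fall outside this rule and were named after their values were seen. The same holds for *Ccr7*, *Flt3*, *Xcr1*, *Cd209a*, *Clec9a*, *Csf3r*, *S100a8*, *S100a9*, *Retnlg*, *Cxcr2*, *H2-T10*, *H2-T23* and the genes of similar or overlapping sequence. Alternatives were other scalings and filters, removal of mitochondrially encoded features, the Wald test of DESeq2 1.42.0, a replicate block, the omission of each library, another prior count and medians for ratios. Summed counts of near-identical genes and the same 16 libraries without the block were chosen after seeing the data. The fit of those 16 libraries without the block is the same as the fit without IZ replicate 9.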

Additional observations from a re-analysis of the deposited data

Results flagged for a closer look

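One value stood apart from its group. The log2 ratio of *Psmb8* to *Psmb5* was -2.67 in sham replicate 6, against -1.64 to -0.91 in the 7 other sham libraries, a gap larger than Dixon's 95% critical value. *Psmb8* had 18 counts in that library. Over 34 groups of values examined, chance would flag about 1 in 20. The difference between the groups in this ratio was 1.73 to 1.98 with any 1 library left out.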

How the results depend on the processing

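With total counts alone in place of TMM, 0 members were called lower, and the pathway lists had 58 genes called higher and 1 lower. The signs of 11 named genes then turned: *Psmb10* 0.88, *Psme1* 0.30, *H2-Q4* 0.98, *Ifngr2* 0.11, *Mr1* 0.94, *Psma6* 0.46, *Psmb5* 0.63, *Psmb6* 0.90, *Psmb7* 0.37, *Psme3* 0.69 and *Tap2* 0.93 on the log2 scale, as the median of all genes moved by 1.077. With upper quartile scaling that median moved by 0.11 and without a filter by 0.19. A minimum mean of 50 counts left 6734 genes tested and 5239 called, against 8544, and the Wald test of DESeq2 called 10295.

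Under every alternative but total counts alone, 7 members were called higher and 1 lower. With 1 library left out, the genes called ran from 7962 to 8614, list genes called higher from 18 to 21 and lower from 15 to 17, and 0 to 1 of 12 pairs of members were correlated. The 1 was *H2-K1* with *B2m* in sham without replicate 5 (r = 0.92, exact permutation, adjusted p = 0.0143).

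Labels number the mice of both groups, but a number marks different mice. Deviations of same-numbered libraries correlated by -0.22 to 0.13, and only number 8 had its own number as best partner. With the replicate block over numbers 1 to 8, 7884 genes were called, against 8153 in the same 16 libraries without it, and members were again 7 higher and 1 lower. Depth limits what can be said of *Ifng* and of the T and NK cell markers, which had too few counts to be tested.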
